A study of Homo sapiens with 15 samples.

Results

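EGR1, EGR2, EGR3 and EGR4 are the early growth response transcription factors, and NAB1 and NAB2 are the corepressors that bind them. These 6 genes were taken by their symbols from the 35805 genes in the deposited table, and each was listed once. They were followed by RNA-seq in HEK-293T, a line derived from human embryonic kidney, in 15 libraries that form 5 groups of 3. One group was untransduced. Cas9 was introduced with either of 2 control guides (sgControl, made up of the groups sg1-Control and sg2-Control) or with either of 2 guides that target THAP1 (sgTHAP1, made up of sg1-THAP1 and sg2-THAP1). THAP1 is a zinc finger transcription factor mutated in a form of dystonia, and the experiment asked which transcripts depend on it.

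The labels describe every group as HEK-293T, with the untransduced cells as wild type. By the study's account THAP1 was targeted in reporter cells with GFP at the endogenous PSMB5 locus and with added PSMB5, which keeps cells alive without THAP1, and whether the untransduced and sgControl cells were such reporter cells is not stated in the sources used here. Reporter lines came from single-cell cloning, guides were delivered by lentivirus, and each control guide cut within an intron of a gene, FOXP1 for sg1-Control. The sgTHAP1 cells were a population sorted for dim GFP before RNA was taken, and whether the other groups were sorted is not stated. Between sgTHAP1 and sgControl cells, sorting, any difference in the parent cells and the THAP1 guide therefore cannot be told apart. Untransduced cells lacked the vector for Cas9 and the guide, and in a difference from them the vector, Cas9, the cut and any difference in the parent cells cannot be told apart. The libraries are bulk samples, in which fewer cells expressing a gene and less RNA per cell cannot be told apart.

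EGR genes are the textbook immediate early genes. Growth factors and stress act through the MAP kinase ERK on ternary complex factors (ELK1, ELK3, ELK4) and serum response factor (SRF), which bind CArG boxes in EGR promoters and switch transcription on within minutes without new protein synthesis. The EGR proteins then bind GC-rich sites through zinc fingers, and NAB1 and NAB2 dock onto EGR1, EGR2 and EGR3, recruit the NuRD remodelling complex through CHD4 and damp their activity, while EGR4 lacks the NAB docking domain. NAB2 is itself induced by EGR factors, which closes a feedback loop, and EGR2 with the NAB proteins is known for its part in myelination.

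The promoter sequences are shown because the boxes that SRF and EGR proteins are known to read stand in them. They were read from RefSeq promoter windows of GRCh38.p14, on the gene's own strand, and capitals mark motif matches. Of the 6 genes 5 were matched by symbol, all but EGR3. The search covered the 250 bases before the start site on both strands, for the CArG box by its name, for the EGR sites GCGTGGGCG and GCGGGGGCG, for the THAP1 site TNNNGGCA, the ETS site CCGGAA, the CRE TGACGTCA and the TATA box TATAAA. EGR1 is on the plus strand at chr5:138465229-138465478 and held 2 CArG boxes, from 105 to 96 and from 83 to 74 bases before the start. EGR2 is on the minus strand at chr10:62816374-62816616 and held 1 CArG box, from 71 to 62 bases before the start, in whose last bases a THAP1 match begins, with a further THAP1 match on each side of it.
EGR1: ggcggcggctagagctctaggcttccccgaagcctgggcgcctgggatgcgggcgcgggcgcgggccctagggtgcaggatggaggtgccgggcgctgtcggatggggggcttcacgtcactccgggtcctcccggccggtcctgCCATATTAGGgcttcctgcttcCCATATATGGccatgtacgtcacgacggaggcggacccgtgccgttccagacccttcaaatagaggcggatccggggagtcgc
EGR2: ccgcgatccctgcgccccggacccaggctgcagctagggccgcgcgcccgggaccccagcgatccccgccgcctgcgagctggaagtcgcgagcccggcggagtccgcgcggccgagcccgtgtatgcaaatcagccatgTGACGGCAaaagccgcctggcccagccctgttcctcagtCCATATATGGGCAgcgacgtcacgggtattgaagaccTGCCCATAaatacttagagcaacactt
A CArG box stood in 1.16% of the 35116 promoter windows searched, and a THAP1 site in 35.7% of them, so a THAP1 match is common.

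The remaining promoters are given as stretches of 30 bases around a match. EGR4, on the minus strand at chr2:73293651-73293680, held 1 THAP1 match and no CArG box. NAB1, on the plus strand, held GCGTGGGCG at chr2:190648898-190648927 and, on the opposite strand, a pair of overlapping matches to GCGGGGGCG at chr2:190648843-190648872. NAB2, on the plus strand at chr12:57089042-57089071, held GCGGGGGCG.
EGR4: ctgtgtccatgTTTGGGCAtttacgtcacg
NAB1, first stretch: actcggccgcGCGTGGGCGggagccggagc
NAB1, second stretch: gcccagcggcCGCCCCCGCCCCCGCccggc
NAB2: tgtgcgtcctGCGGGGGCGgaggcgcggag
GCGTGGGCG stood in 0.72% of all windows and GCGGGGGCG in 4.72%. No ETS site, CRE or TATA box in the letters searched stood in the 5 windows, against 14.5%, 1.65% and 10.7% of all windows. A match is a description of letters and does not show that a factor binds there.

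Depth ran from 30400149 to 36548571 reads in the untransduced libraries, from 31900201 to 56638461 in the sgControl libraries and from 30645102 to 47754883 in the sgTHAP1 libraries. THAP1 itself, the targeted gene, had a log2 RPM (reads scaled to the depth of each library) between 3.36 and 3.46 without a guide, between 3.25 and 3.57 with a control guide and between 5.48 and 6.18 with a THAP1 guide, so its transcript was higher, not lower, in the libraries labelled sgTHAP1, and transcript counts do not show whether the gene was edited. The 8 HEK-293T markers, such as VIM and NEFM, together held 1330 to 1371 RPM in untransduced cells, between 1064 and 1194 RPM in sgControl cells and between 1269 and 1452 RPM in sgTHAP1 cells. The 8 markers of other cell lines summed to between 0.994 and 2.92 RPM in every library, and none of them was at 0 reads throughout. NAPSA held 16 to 83 reads per library, CD14 4 to 44 and KRT7 0 to 20, while PTPRC held 0 to 3 and CD3E 0 to 1. Not all HEK-293T markers were abundant. In untransduced cells VIM had a log2 RPM of 9.65 to 9.70, but PAX2 had 1.43 to 1.55, LHX1 0.12 to 0.69 and EYA1 1.32 to 2.01. NAPSA, at 0.87 to 1.45, lay near these 3.

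EGR1, the most abundant EGR gene in all 5 groups, was high only in cells with a control guide. Its log2 RPM was 3.87, 4.19 and 4.05 in the untransduced libraries. It was 8.02, 8.03 and 8.04 with sg1-Control and 7.19, 7.23 and 7.22 with sg2-Control. With sg1-THAP1 it was 4.31, 4.30 and 4.31, and with sg2-THAP1 4.70, 4.77 and 4.88. Every sgControl library lay far above the other 9, and every sgTHAP1 library lay a little above the untransduced libraries. In reads, the 3 groups held 1613 (untransduced), 52559 (sgControl) and 5124 (sgTHAP1).

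EGR2, which drives hindbrain patterning and myelination, followed the same order among controls but fell below the untransduced level with a THAP1 guide. Its log2 RPM was -0.84, -1.38 and -2.12 in untransduced cells. With sg1-Control it was 2.37, 2.52 and 2.19, and with sg2-Control 1.80, 2.04 and 1.59. With sg1-THAP1 it was -3.94, -2.98 and -3.36, and with sg2-THAP1 -3.41, -2.68 and -3.26. The 3 arms did not overlap, but the sgTHAP1 values rest on 2 to 6 reads per library and the untransduced values on 7 to 17.

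EGR3, a factor known from muscle spindles and T cells, went from near absence to 7524 reads with a control guide. Its log2 RPM was -2.12, -2.87 and -4.93 in untransduced cells. It reached 5.21, 5.18 and 5.17 with sg1-Control and 4.68, 4.37 and 4.40 with sg2-Control. With sg1-THAP1 it was -5.09, -2.17 and -2.62, and with sg2-THAP1 -1.998, -1.68 and -2.12. The first sg1-THAP1 library held 0 reads, which allows a level of up to 0.0979 RPM (3 reads, counting error only), and is listed at the value of 0.9 of a read. The untransduced and sgTHAP1 libraries overlapped.

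EGR4, the least abundant EGR gene, was detected above single reads only with a control guide. Its log2 RPM was 0.04, -0.02 and -0.19 with sg1-Control and -0.76, -0.30 and -0.61 with sg2-Control, from 21 to 56 reads per library. All untransduced and sgTHAP1 libraries held 0 or 1 read, and 0 reads allows up to 0.0821 RPM in the second untransduced library and up to 0.0628 RPM in the deepest sgTHAP1 library. The read sums were 2 (untransduced), 209 (sgControl) and 2 (sgTHAP1). After scaling to depth, sgControl stood 41.5 times above untransduced (95% counting interval 11.35 to 345.0) and 89.9 times above sgTHAP1 (24.6 to 747).

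NAB1, a corepressor expressed in most tissues, was highest in untransduced cells and lowest with a THAP1 guide, within a narrow range. Its log2 RPM was 5.26, 5.45 and 5.40 in untransduced cells, 4.80, 4.76 and 4.66 with sg1-Control and 4.65, 4.73 and 4.73 with sg2-Control. With sg1-THAP1 it was 4.55, 4.59 and 4.56, and with sg2-THAP1 4.31, 4.42 and 4.48. The untransduced, sgControl and sgTHAP1 libraries did not overlap, while those of the control guides overlapped with each other.

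NAB2, the inducible corepressor, differed between the guide groups of the same arm. Its log2 RPM was 3.53, 3.83 and 3.45 in untransduced cells. It was 4.53, 4.48 and 4.45 with sg1-Control but only 3.97, 3.65 and 4.01 with sg2-Control. It was 3.91, 3.77 and 3.76 with sg1-THAP1 and 4.25, 4.22 and 4.16 with sg2-THAP1. The sg1-Control libraries were the highest of all 15, and the sg2-Control libraries overlapped with untransduced and sg1-THAP1 libraries.

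**Figure D1:**
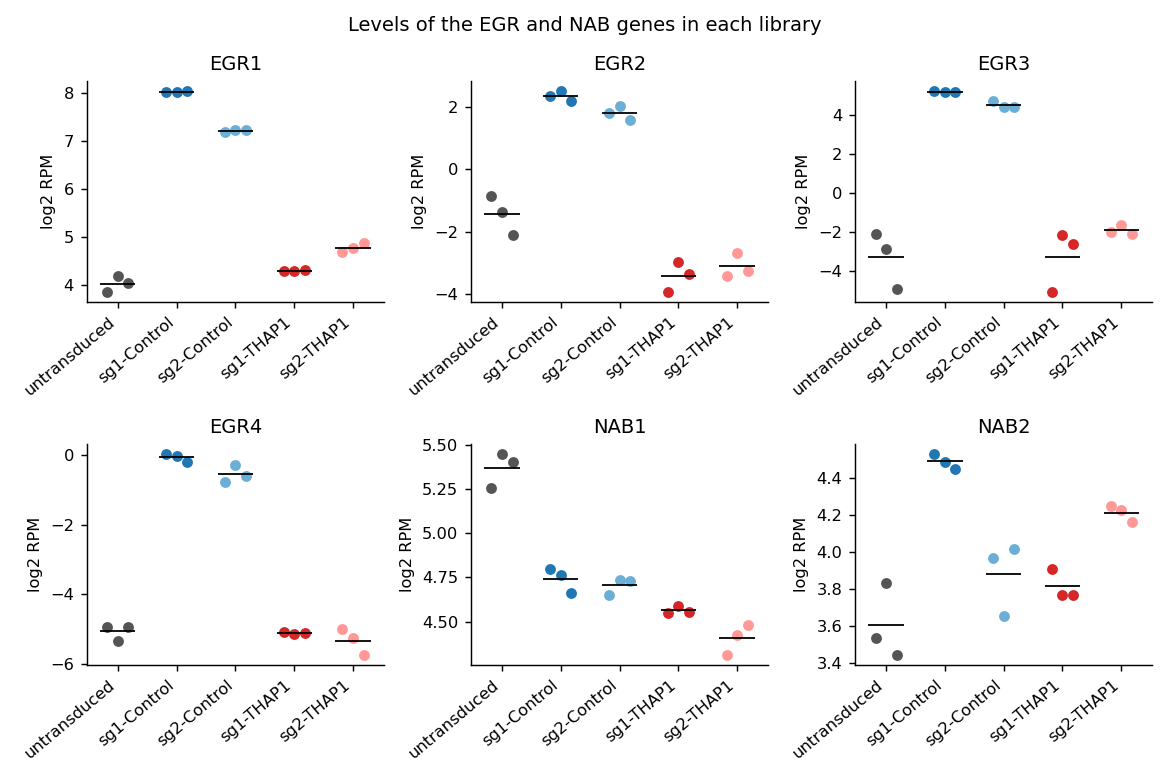
Log2 RPM of the 6 genes in each of the 15 libraries, 1 panel per gene with its own scale; points are libraries, colours are the 5 groups and bars are group means. The 4 EGR genes are high in the 6 sgControl libraries alone, NAB1 is highest in the 3 untransduced libraries, and NAB2 separates by guide, from 4.45 to 4.53 with sg1-Control and from 3.65 to 4.01 with sg2-Control.

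Per kilobase of GENCODE 44 exons, the mean level of EGR1 in untransduced cells was 5.24 RPM per kb, between NAB1 at 8.48 and NAB2 at 4.28. NAB1 ranged from 7.84 to 8.95 and lay above EGR1, at 4.65 to 5.80, whereas EGR1 and NAB2, at 3.81 to 4.98, overlapped. EGR2 (0.105), EGR3 (0.0265) and EGR4 (0.00923) were far lower on the same scale. In sgControl cells EGR1 led at a mean of 65.4 RPM per kb, followed by NAB2 at 6.51, EGR3 at 5.86, NAB1 at 5.41, EGR2 at 1.17 and EGR4 at 0.348. NAB2, EGR3 and NAB1 overlapped there and their order is not set by these libraries. In sgTHAP1 cells EGR1 (7.55, range 6.30 to 9.39), NAB2 (5.70, range 4.75 to 6.64) and NAB1 (4.59, range 4.07 to 4.93) overlapped each with the next, and EGR3 (0.0390), EGR2 (0.0290) and EGR4 (0.00403), which rest on few reads, lay below. Among these EGR3 and EGR2 overlapped, and EGR4, at 0 to 0.0132, lay below EGR2, at 0.0176 to 0.0422.

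Summed over the family, the balance of EGR to NAB transcripts changed sides. Untransduced libraries held 0.309 to 0.323 EGR reads for each NAB read. With sg1-Control the ratio was 5.96 to 6.49, and with sg2-Control 4.08 to 4.48. With sg1-THAP1 it was 0.516 to 0.543 and with sg2-THAP1 0.676 to 0.742. No 2 of the 5 groups overlapped. EGR1 supplied 94.7% to 98.3% of EGR reads in untransduced cells, 83.0% to 86.5% with a control guide, where EGR3 made up most of the rest, and 98.2% to 99.7% with a THAP1 guide.

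**Figure D2:**
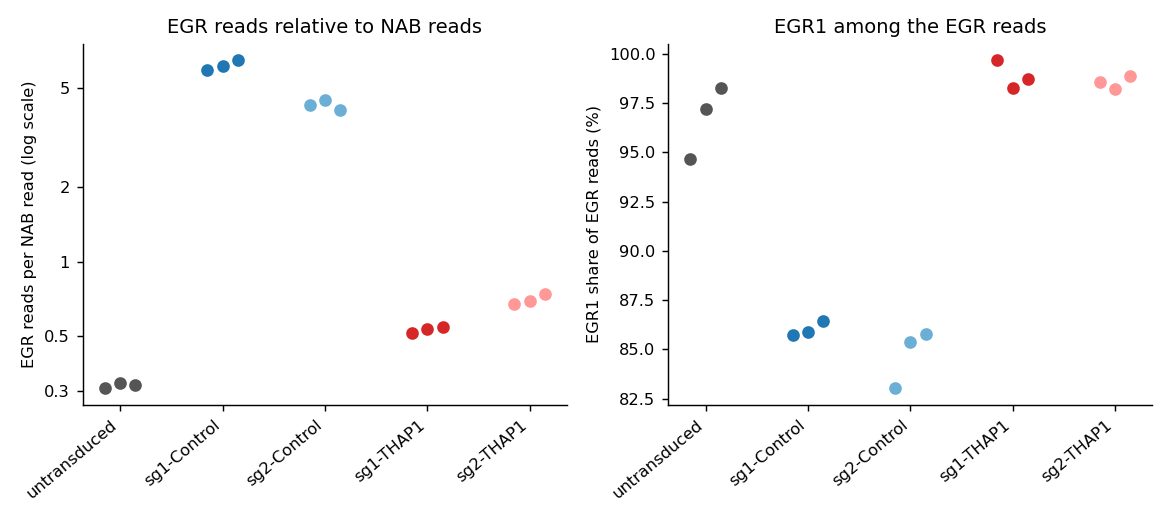
Left, reads of EGR1 to EGR4 summed and divided by reads of NAB1 and NAB2 in each library, on a log axis; right, the percent of EGR reads that are EGR1, on an axis that does not start at 0. EGR reads exceed NAB reads only in the 6 sgControl libraries, where the EGR1 share is lowest at 83.0% to 86.5%.

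The comparison of sgControl with untransduced cells covers the vector, Cas9, the cut and any difference in the parent cells together. The 4 EGR genes rose and NAB2 rose less, while NAB1 fell. EGR1 was higher by 3.59 on the log2 scale (SE 0.19, adjusted p = 1.8e-12), 12.03-fold, from 16.4 RPM (n = 3) to 205 RPM (n = 6). EGR2, EGR3 and EGR4 were higher by 3.53 (SE 0.32), 8.14 (SE 0.59) and 4.76 (SE 0.52). Calls required more than 2-fold and an adjusted p under 0.001 in limma, over the 16787 genes tested, and 4 of the 6 genes were called higher and 0 lower, where 2.29% of all genes were called higher and 8.76% lower. By size of rise EGR3 was 1st, EGR4 5th, EGR1 13th and EGR2 15th of 16787.

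EGR2, EGR3 and EGR4 passed the filter on low values (log2 of at least -2 in at least 3 libraries) only through their sgControl libraries, so they had to differ from the other groups and their calls add no support beyond the values themselves. With no filter, over all 35805 genes, the count was also 4, where 347 genes were called higher and 1500 lower. NAB1 fell by 0.65 (SE 0.06, adjusted p = 1.7e-08), to 63.8% of its untransduced level, and NAB2 rose by 0.58 (SE 0.16, adjusted p = 0.0039), 1.49-fold. Neither reached 2-fold. At an adjusted p under 0.05, 28.1% of all genes were higher and 40.5% lower. In the exact permutation test of 6 against 3 libraries, EGR1, EGR2, EGR3, EGR4 and NAB1 gave p = 0.0238, the smallest this design allows, and NAB2 gave p = 0.0476 with overlapping groups. The share of all genes that reach this smallest p was not counted, so it does not set the members apart from other genes.

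Split by guide, the 4 EGR genes were higher with each control guide on its own, EGR1 by 3.999 with sg1-Control and by 3.18 with sg2-Control. For EGR2, EGR3 and EGR4, which passed the filter only through sgControl libraries, the values by guide add no separate support. In the fit by guide EGR1 ranked 1st of 16787 genes by p for sg1-Control and 4th for sg2-Control, and 11th and 22nd by size of rise. The ranks by p rest on the spread within each guide. In the pooled fit, which counts differences between guides as spread, EGR1 ranked 313th by p. NAB2 was higher by 0.88 (SE 0.08) with sg1-Control but by 0.27 (SE 0.08) with sg2-Control. NAB1 was lower by 0.63 and 0.66 with the respective guides.

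**Figure D3:**
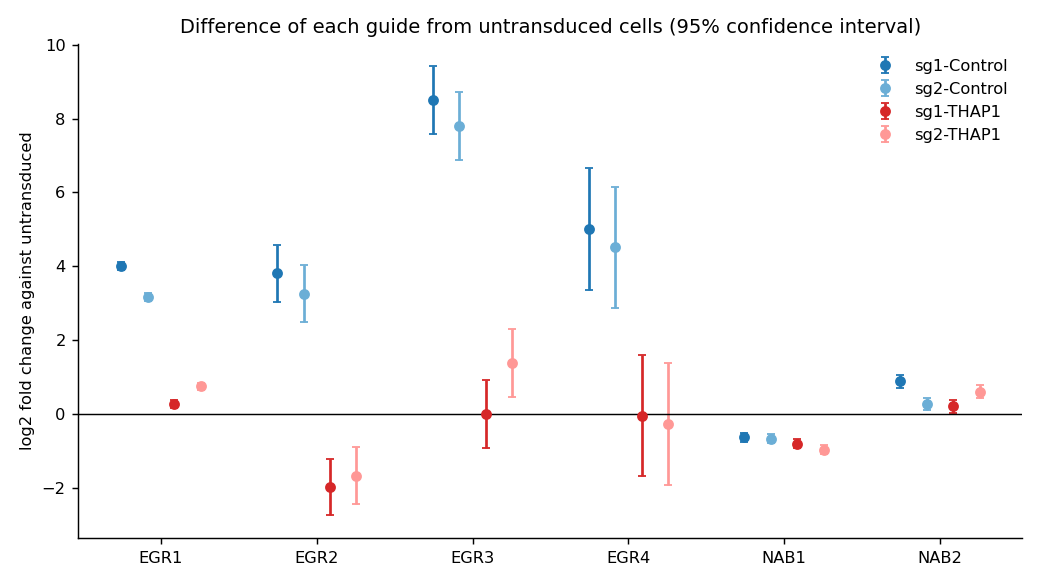
Log2 fold change of each gene against untransduced cells for each of the 4 guides (3 libraries each), points with 95% confidence intervals from the limma fit by guide. The 4 EGR genes are higher in cells with either control guide, by 3.18 to 8.49, and cells with the THAP1 guides stand within 2 of zero on this scale for all 6 genes.

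Comparing sgTHAP1 with sgControl cells, which share the vector, asks what changed with the THAP1 guide. Any sort, GFP reporter or added PSMB5 that the sgControl cells lacked is part of the same difference. All 4 EGR genes fell, NAB1 fell less, and NAB2 did not pass the test. EGR1 fell by 3.08 on the log2 scale (SE 0.16, adjusted p = 3.5e-12), to 11.8% of its sgControl level, from 205 to 23.7 RPM. EGR2 fell by 5.36 (SE 0.26), to 2.44%, EGR3 fell by 7.45 (SE 0.48), to 0.572%, and EGR4 fell by 4.91 (SE 0.43). Thus 4 of the 6 genes were called lower and 0 higher, where 1.83% of all genes were called lower and 0.346% higher. These calls are not the study's, which left out genes that already differed between untransduced and control-guide cells. The 4 EGR genes were called in that comparison here. By size of fall EGR3 was 1st, EGR2 3rd, EGR4 4th and EGR1 16th. The exact permutation test of 6 against 6 libraries gave p = 0.00216, its smallest value, for each EGR gene and for NAB1. The share of all genes that reach it was not counted. EGR2, EGR3 and EGR4 passed the filter only through their sgControl libraries, so for them neither this p nor the call adds support beyond the values.

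NAB1 fell by 0.24 (SE 0.05, adjusted p = 6.1e-04), to 84.8% of its sgControl level, with no overlap of the groups. When each library was centred on its median gene the difference was -0.12 and its adjusted p was 0.088. NAB2 differed by -0.17 (SE 0.13, adjusted p = 0.297, 95% interval -0.45 to 0.11), and the exact permutation p was 0.338. That mean hides opposite differences, because sg1-THAP1 lay 0.67 below sg1-Control (adjusted p = 2.5e-09) and sg2-THAP1 lay 0.33 above sg2-Control (adjusted p = 0.0027), and the difference between these differences was not tested. The pairing of guides by number is only a label. At an adjusted p under 0.05, 20.2% of all genes were higher and 32.6% lower in this comparison.

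Comparing sgTHAP1 directly with untransduced cells shows how near to the untransduced level the EGR genes stood. This comparison shares its libraries with both others. EGR1 was higher by 0.51 (SE 0.19, adjusted p = 0.022), 1.43-fold, and all 6 sgTHAP1 libraries lay above the 3 untransduced ones, but the adjusted p was 0.101 without the first untransduced library and 0.0515 without the third. EGR3 differed by 0.69 (adjusted p = 0.295, 95% interval -0.53 to 1.92) and EGR4 by -0.15 (adjusted p = 0.805, 95% interval -1.24 to 0.94), intervals too wide to show that the levels were alike, and without the first sg1-THAP1 library EGR3 was 1.19 higher (adjusted p = 0.015). EGR2 was lower by 1.82 (SE 0.32, adjusted p = 4.3e-05), at 28.3% of the untransduced level, from 38 reads over 3 libraries to 23 reads over 6. It was the 1 gene of 6 called, lower, against a background of 13.4% called lower and 2.52% called higher. Without the first untransduced library the difference was -1.52 and its adjusted p of 0.001003 missed the threshold. The call was also lost with a pseudocount of 0.5 RPM (-0.54), with quantile normalization (-0.89), with voom on recovered reads (-1.52) and with only the groups compared in the fit (-1.82, adjusted p = 0.0056).

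NAB1 was lower by 0.89 in the same comparison (SE 0.06, adjusted p = 9.8e-11), at 54.1% of the untransduced level. NAB2 was higher by 0.41 (SE 0.16, adjusted p = 0.031), with overlapping groups and an exact permutation p of 0.0714. Its adjusted p was 0.0504 to 0.137 without untransduced replicate 1 or 3 or without any 1 of the sg2-THAP1 libraries. Of all genes 26.9% were higher and 45.5% lower at an adjusted p under 0.05, and 4 of the 6 genes passed that threshold, EGR1 and NAB2 higher and EGR2 and NAB1 lower.

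Libraries of the same arm differed by guide, which the pooled comparisons count as replicate spread. Between the control guides EGR1 was 0.82 higher with sg1-Control (SE 0.05, adjusted p = 3.9e-15), 1.77-fold, the smallest p of all 16787 genes but 359th by size of rise. NAB2 was 0.61 higher (SE 0.08, adjusted p = 3.5e-06), 1.52-fold, and ranked 30th by p and 608th by size. EGR2, EGR3 and EGR4 were higher by 0.55, 0.70 and 0.50 with sg1-Control and did not pass (adjusted p 0.515, 0.479 and 0.829), although their libraries did not overlap between the guides. When only these 6 libraries entered the fit, EGR2 (adjusted p = 0.017) and EGR3 (adjusted p = 1.5e-09) passed 0.05. NAB1 differed by 0.03 (95% interval -0.08 to 0.15). No member was called, against 0.00596% of genes called higher and 0% lower, and 2 passed an adjusted p of 0.05, where 2.06% of genes were higher and 1.82% lower. The 1 gene called was ARC, a synaptic immediate early gene.

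Between the THAP1 guides EGR1 was 0.47 lower with sg1-THAP1 (SE 0.05, adjusted p = 5.0e-10), at 72.0% of the sg2-THAP1 level. NAB2 was 0.40 lower (SE 0.08, adjusted p = 1.6e-04) and NAB1 was 0.16 higher (SE 0.06, adjusted p = 0.024), which was lost without the second sg1-THAP1 library (0.15, adjusted p = 0.073) or the first sg2-THAP1 library (0.11, adjusted p = 0.164). EGR3 differed by -1.36 (SE 0.45, adjusted p = 0.014), but without the first sg1-THAP1 library, which holds 0 reads, the difference was -0.47 and its adjusted p was 0.370, and without the second sg2-THAP1 library it was -1.24 (adjusted p = 0.052). EGR2 and EGR4 differed by -0.31 and 0.22 (adjusted p 0.557 and 0.859). No member was called, against 0.101% of genes higher and 0.441% lower, and 4 passed an adjusted p of 0.05, where 11.7% of genes were higher and 28.3% lower. An exact permutation test of 3 against 3 libraries cannot go below p = 0.10.

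The route that switches EGR genes on was measured through 19 kinases and factors from the RAF kinases to SRF and CREB1, all of them tested. In sgControl against untransduced cells 10 were higher and 3 lower at an adjusted p under 0.05, where 28.1% of all genes were higher and 40.5% lower, and the median difference was 0.21, beside -0.12 over all genes tested. SRF, the factor that binds the CArG box, was called higher, by 1.20 (SE 0.07), and RPS6KA2, a kinase below ERK, was called lower, at -1.36. In sgTHAP1 against sgControl cells 2 of 19 were higher and 10 lower, where 20.2% of all genes were higher and 32.6% lower, none was called, and the median was -0.16, beside -0.06 over all genes. SRF fell by 0.61 (SE 0.06, adjusted p = 2.0e-08), the kinase BRAF by 0.51, the ternary complex factor ELK4 by 0.54 and the kinase RPS6KA3 by 0.44. Against untransduced cells sgTHAP1 cells still held more SRF, by 0.59 (SE 0.07, adjusted p = 1.8e-07). Transcript levels do not measure kinase activity.

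Genes reported elsewhere as EGR targets moved in both directions. Of 20 listed, 17 were tested, and in sgControl against untransduced cells 5 were higher and 7 lower at an adjusted p under 0.05, about the share of all genes (28.1% and 40.5%), with a median of -0.22 beside -0.12 over all genes. Among the 4 called higher, where 2.29% of all genes were called higher, were ARC by 4.01, the growth arrest gene GADD45B by 2.09 and the synaptic vesicle gene SYN1 by 1.86. In sgTHAP1 against sgControl cells 2 were higher and 10 lower, where 20.2% of all genes were higher and 32.6% lower, with a median of -0.33 beside -0.06. ARC was among the 2 called lower, where 1.83% of all genes were called lower, and fell by 2.001 (SE 0.20). TGFB1, a growth factor, fell by 0.60 (SE 0.08), and PDGFA, another growth factor and a textbook EGR1 target, rose by 0.43 (SE 0.07, adjusted p = 3.8e-05).

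ARC in sgTHAP1 cells remained 2.01 above untransduced cells (SE 0.24, adjusted p = 2.8e-07). GADD45B, too, stayed 1.54 above untransduced cells (SE 0.14). In sgTHAP1 against untransduced cells 5 of the 17 targets were higher and 10 lower, where 26.9% of all genes were higher and 45.5% lower. Of the targets 2 were called higher and 4 lower, where 2.52% of all genes were called higher and 13.4% lower. The 4 called lower were the vascular growth factor gene VEGFA at -1.13, the ubiquitin ligase gene CBLB at -1.29, the coagulation gene F3 at -1.04 and the protease gene MMP14 at -1.05, all named after their values were seen. In sgControl against untransduced cells VEGFA already stood at -0.80, CBLB at -0.92, F3 at -0.82 and MMP14 at -0.33 (adjusted p = 0.115 in limma for MMP14).

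**Figure D4:**
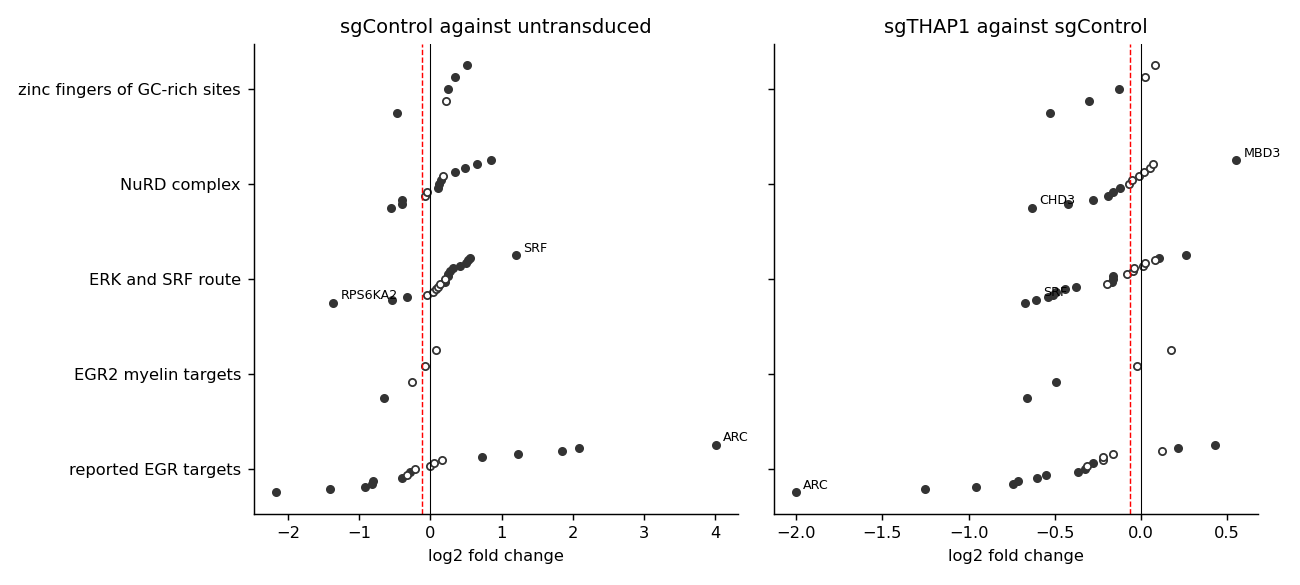
Log2 fold changes of the tested genes in 5 lists for sgControl against untransduced (left) and sgTHAP1 against sgControl (right); each point is a gene, filled at an adjusted p under 0.05, and the dashed line is the median of all genes tested, -0.12 and -0.06. ARC lies far to the right on the left panel, at 4.01, and to the left on the right panel, at -2.001, while most other genes lie within 1 of zero.

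Of 9 myelin genes known to be under EGR2, 4 passed the filter on low values, and in sgTHAP1 against sgControl cells, where 20.2% of all genes were higher and 32.6% lower, 0 were higher and 2 lower (median -0.26, beside -0.06 over all genes), NDRG1 by 0.49 (SE 0.07) and MBP by 0.66 (SE 0.20). NuRD, which NAB proteins recruit, had all 13 genes tested, of which 1 was higher and 6 lower in that comparison, with a median of -0.07, about that of all genes. The remodeller CHD3 fell by 0.63 (SE 0.05), GATAD2B by 0.42 and MTA3 by 0.28, and MBD3 rose by 0.55 (SE 0.05). None was called. Of 5 other zinc finger genes for GC-rich sites, WT1 and SP1 to SP4, 0 were higher and 3 lower (median -0.13), SP4 by 0.53 and SP1 by 0.30 among them.

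The genes next to the members were checked, since the strand setting of the counting is not given in the sources used here. On GRCh38, in the deposited coordinates, EGR1 spans 138465490 to 138469315 of chromosome 5 and EGR4 spans 73290929 to 73293705 of chromosome 2. EGR2 is listed from 62811996 to 62919900 on chromosome 10, longer than its GENCODE 44 span, which ends at 62819167. The antisense gene that overlaps EGR3 held 0 reads in every library. NAB2 (57088894 to 57095476 of chromosome 12) overlaps the end of STAT6, a cytokine response factor on the opposite strand, by 69 bases, and STAT6 fell by 0.97 in sgControl against untransduced cells, where NAB2 rose. Next to EGR2, ADO, a thiol oxygenase gene, rose by 0.36 in sgControl against untransduced cells, where EGR2 rose. It differed by 0.00 (adjusted p = 0.969) in sgTHAP1 against sgControl cells. In the same comparisons ETF1, next to EGR1, rose by 0.57 and fell by 0.17, while REEP2, on the other side of EGR1, fell by 0.63 and 0.22. CTD-3247F14.2, 3650 bases from EGR3 on the same strand, was too low to test (0 to 22 reads). Its log2 RPM was -3.56 to -1.36 in sgControl, -5.34 to -3.34 in untransduced and -5.58 to -5.09 in sgTHAP1 libraries. Next to EGR4, FBXO41 fell by 1.29 in sgTHAP1 against sgControl cells. It had already fallen by 1.02 in sgControl against untransduced cells, where EGR4 rose.

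The genes whose log2 values were most like each member's over the 15 libraries were named by Pearson's r, as a description, because the libraries fall into groups by guide. EGR1 was closest to KLHL15 (r = 0.992), E2F3 and DIS3. EGR2 was closest to CCNYL1 (r = 0.987) and to ATF3 and NR4A1, which are themselves stress-induced and immediate early genes. NR4A1 was higher by 3.40 in sgControl against untransduced cells and fell by 4.501 in sgTHAP1 against sgControl cells. EGR3 was closest to NAA25 (r = 0.982), ZNF644 and SLC25A25, and EGR4 was close to ZYX (r = 0.987) and KCNA1. NAB1 was closest to SPOCK3 (r = 0.987), and NAB2, with the lowest likeness, to SEPHS2 (r = 0.917). Many of these genes moved far less than the EGR genes, NAA25 by 0.46 against 8.14 for EGR3.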

How the data were processed

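The authors trimmed reads with Cutadapt, aligned them to GRCh38 with HISAT2 and analysed them in SeqMonk, and deposited log2 RPM values per gene, in which a gene without reads stands at the value of 0.9 of a read. Library preparation was strand-specific after polyA selection; for the counting, neither strand setting nor annotation release is given in the sources used here. Reads were recovered from the value of 1 read, and 99.8% of values were whole within 0.01 of a read.

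Groups came from the sample labels. The 16787 genes that reached -2 on the log2 scale in 3 or more libraries entered limma 3.58.1 in R 4.3.3 (lmFit, eBayes with trend, Benjamini-Hochberg over all of them), with 3 coefficients for the arms and 5 for differences between guides. The fit of the arms was run on simulated data for sgTHAP1 against sgControl only. That simulation held independent noise and no difference between guides, so it does not cover the fit by guide. Calls used an adjusted p under 0.001 and more than 2-fold, the thresholds of the study. The study also discounted genes that differed between untransduced and control-guide cells, a step not applied here because it would drop members. Single genes also had exact two-sided permutation tests. Libraries of 1 guide count as independent in the pooled tests, and the labels do not say whether replicates were separate cultures, so p-values cover the spread between these libraries. Intervals on read ratios and limits at 0 reads cover counting error only. Named genes were the 6 members, THAP1, up to 4 genes per list with the smallest adjusted p for sgTHAP1 against sgControl, neighbouring genes and the 3 genes most like each member; other list genes that were called were named after their values were seen. The members, gene lists and tests were chosen with earlier results of these data known. A few named items are not reported here, and counts over lists still include them.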

Additional observations from a re-analysis of the deposited data

Results flagged for a closer look

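EGR3 in the first sg1-THAP1 library, at a log2 RPM of -5.09 and 0 reads, stood apart from the other 5 sgTHAP1 libraries, which held 5 to 12 reads. EGR4 in the third sg2-THAP1 library, at -5.73, stood below the other 5, but it also held 0 reads, and a gene with 0 reads is listed lower in a deeper library. About 1 group in 20 is set apart in this way by chance.

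The THAP1 guides differed from each other at an adjusted p under 0.05 in limma for EGR1 (-0.47, sg1-THAP1 less sg2-THAP1, log2), EGR3 (-1.36), NAB1 (0.16) and NAB2 (-0.40). The control guides differed for EGR1 (0.82, sg1-Control less sg2-Control) and NAB2 (0.61). EGR1 and NAB2 thus differed in both arms, with sg1 above sg2 among control guides and below it among THAP1 guides, and no cause was tested.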

How the results depend on the processing

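Of 769 values of single genes recomputed under other settings, 756 kept their direction and their side of the threshold. The count of 4 called genes, in sgControl against untransduced and in sgTHAP1 against sgControl, was also 4 with each library left out and with the replicate block. It was 3 in both with a filter at log2 of at least 0, where EGR4 was not among the genes tested. Of the 14230 genes tested there, 328 were called higher and 1323 lower in sgControl against untransduced, and 46 and 281 in sgTHAP1 against sgControl. At an adjusted p under 0.05 it was 6 and 5. Of all genes 28.1% were higher and 40.5% lower there in sgControl against untransduced, and 20.2% and 32.6% in sgTHAP1 against sgControl. With 1.5-fold added it was 5 and 4, and the share of all genes was not counted. Libraries of the same replicate number were no more alike than others (correlations of deviations -0.132 to 0.0441 for the same number and -0.126 to 0.232 for other numbers). These correlations cannot show whether same-numbered libraries were handled together. The block, under which EGR1 differed by -3.08 in sgTHAP1 against sgControl, changed no call.

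The call of EGR2 in sgTHAP1 against untransduced was lost, and the count there fell from 1 to 0, with a pseudocount of 0.5 RPM (-0.54), quantile normalization (-0.89), voom on recovered reads (-1.52), only the groups compared (-1.82) and without the first untransduced library (-1.52); over libraries left out in turn the count was 0 to 1. At an adjusted p under 0.05 the counts were 4 there, 4 between THAP1 guides and 2 between control guides. The shares of all genes, higher and lower, were 26.9% and 45.5%, 11.7% and 28.3%, and 2.06% and 1.82%. With 1.5-fold added the counts were 2, 1 and 2, and the shares of all genes were not counted. Signs turned, all but the first in differences that did not pass, for NAB2 in sgTHAP1 against sgControl with sg2 guides alone (0.33), for EGR3 in sgTHAP1 against untransduced without the third untransduced library (-0.12, the lowest of a range up to 1.29 over libraries left out), for EGR4 there with quantile normalization (0.18) and median centring (0.12), and between THAP1 guides for EGR2 with quantile normalization (0.0022) and for EGR4 with the pseudocount (-0.054), quantile normalization (-0.53) and voom (-0.61). The causes were not tested.

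Scaling moved the whole table: the median gene in sgTHAP1 against untransduced was -0.196 as deposited and 0.0129 after quantile normalization, and calls there went from 423 higher and 2253 lower to 1108 and 1043. In sgControl against untransduced they went from 384 and 1470 to 841 and 687, and in sgTHAP1 against sgControl from 58 and 308 to 107 and 209. Outside sgControl EGR2, EGR3 and EGR4 rest on few reads, which limits their differences below the control-guide level. EGR4 held only 21 to 56 reads per library within sgControl as well.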
